A study of Mus musculus with 4 samples.

Results

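The serpins are a large family of proteins that share one fold, and most of them are inhibitors of serine proteases. They were examined in bulk RNA from mouse mammary carcinoma cells as the protein-coding genes whose symbol begins with Serpin. The deposited table lists 55385 genes, of which 21897 are protein-coding and 61 are serpins. Of these 61, 17 reached a mean of 10 normalized counts over the 4 libraries and were tested, 20 had reads but a lower mean, and 24 had no read in any library. The cells were 4TO7, a carcinoma line of Balb/c mice, recovered from tumors by mechanical and enzymatic digestion. In the resistant group (2 libraries) the tumors were labelled as resistant to immunotherapy, named in the protocol as anti-PD-L1, and in the control group (2 libraries) they were labelled as control tumors. The treatment label of all 4 libraries reads untreated, whereas the treatment protocol of all 4 gives the antibody in vivo, so what the control tumors received is not resolved. The series describes the libraries of a group as biological replicates without saying whether they came from separate animals, and p-values accordingly reflect the variation among these libraries alone, which may be technical.

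Most serpins expose a reactive centre loop as bait: the protease cuts it, the serpin changes shape, and the pair is locked together. Families are sorted into clades by letter. Clade A holds secreted plasma proteins such as alpha-1-antitrypsin, clade B inhibitors that act mostly inside cells, clade E the inhibitors of the plasminogen activators, clade F pigment epithelium-derived factor and antiplasmin, clade H the collagen chaperone Hsp47, and clade I neuroserpin. Some members, among them Serpinf1 and Serpinh1, inhibit no protease. In tumors the family is best known for setting the activity of plasmin, and for protecting cells against the granule proteases of lymphocytes and neutrophils.

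The recovered depth was 46999812 and 45666470 reads in the resistant libraries, and 49592054 and 46179416 reads in the control libraries. The SD of the log2 difference between the libraries of a group, over the 14238 genes tested, was 0.31 for resistant and 0.45 for control. The epithelial keratin Krt18 was abundant, at 30056 and 35171 normalized counts in resistant and 42630 and 27813 in control libraries. Other markers of the list ranged widely. Over the 4 libraries Krt8 averaged 16544 and Cdh1 2226, against 203 for Krt19, 197 for Epcam and 71.2 for Krt7. All 6 carcinoma epithelium markers were tested, of which Krt19 and Krt7 rose and Epcam fell (Krt7 was lost without resistant replicate 2, limma adjusted p = 0.148, and Epcam without resistant replicate 1, limma adjusted p = 0.0723). The summed markers of leukocytes lay at 3.06 and 3.22 normalized counts in resistant and 2.88 and 2.02 in control libraries, with Cd52 at 0, and those of T and NK cells at 2.04 and 2.15 in resistant and 0.961 and 1.01 in control. In bulk RNA, fewer cells of a type and less RNA per cell cannot be told apart.

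Of the 17 tested serpins, 5 rose in resistant cells (among them Serpinf1, Serpinb1c, Serpinb8 and Serpinb9b), 2 fell (Serpina1a and Serpina1b) and 10 did not pass the test (limma on log2 values, Benjamini-Hochberg adjusted p under 0.05 over all 14238 genes). Over all tested genes 5.32% rose and 4.73% fell, 10.1% in both directions together. The libraries of the groups did not overlap for 11 of the 17, against 56.7% of all tested genes. Both resistant libraries were above both control libraries for 8 (28.4% of all tested genes) and below for 3 (28.3%). The median log2 fold change of the 17 was 0.07 and their range was -3.96 to 3.20, beside a median of 0.00 over all tested genes. Without either resistant library, and likewise with no filter on low values, 3 serpins passed the test, namely Serpinf1, Serpina1a and Serpina1b, and the other 4 did not. Dropping a library leaves its group with 1, whose spread is then taken from the other group.

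**Figure D1:**
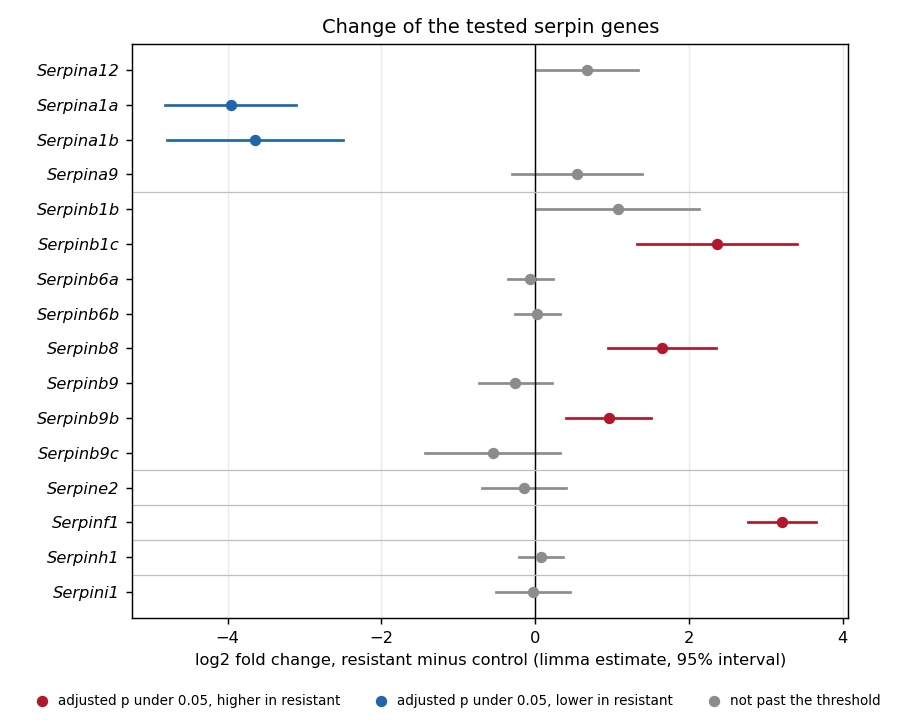
Log2 fold changes (resistant minus control) of 16 of the 17 tested serpins with 95% confidence intervals from limma; the colour marks the outcome of the test. Serpinf1 lies at 3.20 and Serpina1a and Serpina1b lie at -3.96 and -3.64, while the intervals of most of the others lie closer to 0.

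The family as a whole took 0.152% and 0.164% of normalized counts in resistant libraries, and 0.197% and 0.139% in control libraries. Its share in the resistant libraries thus lay between those of the control libraries. Serpine2, Serpinh1 and Serpinb6a made up most of it, 93.5% and 93.5% of the family's normalized counts in resistant and 96.7% and 96.0% in control libraries. On a per-length scale (normalized counts per kilobase of exon, mean of 4 libraries) Serpinh1 came first at 9404, followed by Serpine2 at 5059, Serpinb6a at 1701, Serpinf1 at 490, Serpinb6b at 415, Serpinb9 at 202; further down lay Serpinb9b at 42.0 and Serpini1 at 33.6. On that scale Serpinf1 lay above Serpinb6b in resistant libraries and below it in control libraries. Serpinf1 had 800 and 967 per kilobase in resistant and 111 and 81.7 in control libraries, whereas Serpinb6b had 430 and 409 in resistant and 420 and 402 in control libraries. In control libraries Serpinf1 also lay below Serpinb9, which had 267 and 177.

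**Figure D2:**
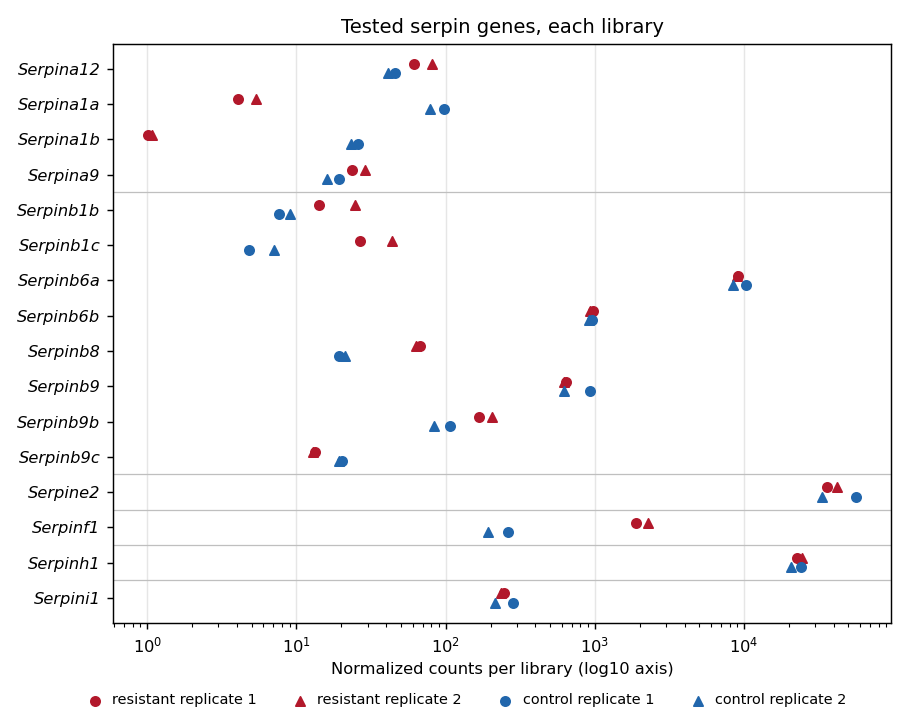
Normalized counts (log10 axis) of 16 of the 17 tested serpins in each library; within each gene the red resistant points are drawn above the blue control points, with a circle for replicate 1 and a triangle for replicate 2, and grey lines part the clades. Serpinf1 and the Serpina1 genes show the widest separation, and Serpine2, Serpinh1 and Serpinb6a sit at the top with overlapping groups.

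Serpinf1 (ENSMUSG00000000753.15; GRCm38 chromosome 11, 75409769 to 75422701, minus strand) encodes pigment epithelium-derived factor, a secreted, non-inhibitory serpin known as an inhibitor of new vessel growth. It had 1886 and 2281 normalized counts in resistant libraries, against 261 and 193 in control libraries. Both resistant libraries lay far above both control libraries. The log2 fold change was 3.20 ± 0.19 (SE, n = 2 per group; 95% interval 2.76 to 3.64; limma adjusted p = 0.000336), which is 9.21-fold, and it ranked 9 by p among all tested genes. It was the largest rise among the serpins and passed the test under every alternative tried, with 2.98 to 3.42 when 1 library was left out. The neighbouring tested genes did not share the difference: Smyd4, 4.06 kb away, had a log2 fold change of -0.29 ± 0.11 (limma adjusted p = 0.146) and Wdr81, 18.2 kb away, one of -0.38 ± 0.14 (limma adjusted p = 0.127).

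Among 7 pericyte markers 5 were tested, and 4 (Des, Notch3, Pdgfrb and Mcam) rose, the same direction as Serpinf1. The other tested marker, Rgs5, had 116 and 112 normalized counts in resistant and 145 and 95.8 in control libraries. It did not pass the test (log2 fold change -0.05, limma adjusted p = 0.926). The summed level of the 7 was 4576 and 5751 in resistant libraries, against 1969 and 1486 in control libraries. Mcam made up most of it, at 3391 and 4274 against 1274 and 918. None of the 7 was at 0 in every library, but Kcnj8 averaged 0.536 and Cspg4 6.66 normalized counts. Notch3 and Pdgfrb did not pass the test without either resistant library (limma adjusted p of 0.110 and 0.277 for Notch3, and of 0.0799 and 0.288 for Pdgfrb). Of 8 fibroblast markers 3 were tested and 1, Dcn, fell, with Dpt at 0. The summed level of the 8 was 7113 and 8466 in resistant and 9295 and 6282 in control libraries. Pdgfra made up most of it, at 6940 and 8313 in resistant and 8504 and 5766 in control libraries. It did not pass the test (log2 fold change 0.12, limma adjusted p = 0.739). The part of such cells in the Serpinf1 result was not tested.

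The sequence before the start of Serpinf1 is shown because this gene carried the largest rise in the family. It is the 250 bases upstream of the RefSeq start (GRCm38.p6, chr11:75422624-75422873, minus strand), 5′ to 3′, with CG dinucleotides in capitals.
Serpinf1: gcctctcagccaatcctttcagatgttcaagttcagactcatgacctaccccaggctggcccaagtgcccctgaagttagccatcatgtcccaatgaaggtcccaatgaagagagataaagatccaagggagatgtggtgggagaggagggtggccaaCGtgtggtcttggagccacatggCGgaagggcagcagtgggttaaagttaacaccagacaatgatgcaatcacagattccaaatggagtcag
It holds 2 CG dinucleotides, and 29.0% of the 32851 mouse promoter sequences of the same length hold at most 2. The letters CAGAC (the Smad box) occur 2 times on either strand and are found in 42.2% of all promoters, and ACGTG (the core of the hypoxia response element) occurs 1 time and is found in 16.6%. A match of letters is a description of the window and not a bound site.

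Of the 5 genes listed as Serpinf1 receptors, 4 were tested and 0 passed the test with limma, 0 also with limma voom, with 0 higher and 1 lower at an unadjusted p under 0.05. Their median log2 fold change was 0.09. Plxdc1, a membrane protein reported as a receptor of this factor, had 76.4 and 124 normalized counts in resistant and 224 and 154 in control libraries (log2 fold change -0.92 ± 0.31, limma adjusted p = 0.106). Pnpla2, the lipase also reported as its receptor, had 5118 and 5894 in resistant and 5161 and 4783 in control libraries (0.14 ± 0.12, limma adjusted p = 0.473). The other clade F gene, Serpinf2, which encodes the plasmin inhibitor antiplasmin, had 3 reads in resistant and 8 in control libraries and was not tested.

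Serpina1a and Serpina1b are neighbouring mouse copies of alpha-1-antitrypsin, the plasma inhibitor of neutrophil elastase that is made mainly by liver, and both fell in resistant cells. Serpina1a (ENSMUSG00000066366.14; GRCm38 chromosome 12, 103853589 to 103863562, minus strand) had 4.08 and 5.36 normalized counts in resistant libraries, against 97.0 and 78.7 in control libraries. Serpina1b (ENSMUSG00000071178.11; chromosome 12, 103728156 to 103830373, minus strand) had 1.02 and 1.07 in resistant libraries, against 25.9 and 23.2 in control libraries. For both genes each control library lay above each resistant library by more than 10 normalized counts, the level used as the filter. The log2 fold change was -3.96 ± 0.37 for Serpina1a (limma adjusted p = 0.00107) and -3.64 ± 0.49 for Serpina1b (limma adjusted p = 0.00543). Since the deposited scale adds 1 before the logarithm, these understate the change of such low genes. From the reads themselves, 9 in resistant and 179 in control libraries gave a depth-scaled ratio of 0.0534 for Serpina1a (95% exact interval 0.0240 to 0.104, counting error only), and 2 and 50 reads gave one of 0.0425 for Serpina1b (0.00501 to 0.162). Both genes passed the filter only through their control libraries, Serpina1b with a mean of 12.8. With a pseudocount of 10 the log2 fold changes were -2.73 and -1.64, and both genes still passed the test.

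The Serpina1 copies are nearly identical, so reads may be split between them by the counting. Over 1239 coding bases Serpina1a and Serpina1b were 97.0% identical, differing at 37 positions (GENCODE M21). Summed over Serpina1a to Serpina1e, 5 genes, the level was 5.10 and 6.44 normalized counts in resistant libraries, against 127 and 104 in control libraries. The group means of log2 of the sum plus 1 differed by -4.10, resistant minus control. The sum was lower in both resistant libraries, and how reads that match several copies were counted is unknown. Of the remaining copies, Serpina1d had 0 reads in resistant and 6 in control libraries, and Serpina1c and Serpina1e had none.

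The promoters of both copies are shown because the pair moved together. They are the 250 bases upstream of the RefSeq starts (GRCm38.p6; Serpina1a at chr12:103863620-103863869 and Serpina1b at chr12:103738190-103738439, minus strand), 5′ to 3′, with the bases that differ in their alignment in capitals.
Serpina1a: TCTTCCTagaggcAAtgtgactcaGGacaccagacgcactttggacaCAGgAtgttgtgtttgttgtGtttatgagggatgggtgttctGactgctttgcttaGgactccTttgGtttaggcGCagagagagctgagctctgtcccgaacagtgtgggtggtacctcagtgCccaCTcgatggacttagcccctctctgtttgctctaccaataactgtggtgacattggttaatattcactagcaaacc
Serpina1b: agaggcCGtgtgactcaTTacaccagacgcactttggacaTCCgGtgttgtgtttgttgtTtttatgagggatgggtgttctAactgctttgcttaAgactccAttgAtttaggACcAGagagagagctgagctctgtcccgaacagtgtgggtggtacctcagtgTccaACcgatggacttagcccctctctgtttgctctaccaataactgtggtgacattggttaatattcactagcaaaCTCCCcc
Their alignment was 87.5% identical. Both hold the AP-1 letters TGANTCA, which 6.75% of all promoters hold on either strand, and which among the 18 promoters of tested serpins occurred also in that of Serpinb8.

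Hepatocyte markers were near 0: 0 of 6 were tested, and Apoc3 and Ttr had no read. Their summed level was 6.11 and 12.9 normalized counts in resistant and 11.5 and 27.2 in control libraries. Of 10 macrophage markers 2 were tested, and C1qa and C1qc were at 0. Cd68 was higher in resistant cells, at 10566 and 9975 against 3227 and 6349 in control libraries. The call of Cd68 was lost without either resistant library (log2 fold change 1.14 and 1.22). The other tested marker, Cd163, had 22.4 and 37.5 in resistant and 24.0 and 12.1 in control libraries and did not pass the test. The part of such cells in the Serpina1a and Serpina1b results was not tested. Further along the cluster Serpina9, known in human from germinal centre B cells, had 23.4 and 29.0 normalized counts in resistant and 19.2 and 16.1 in control libraries and did not pass the test (0.54 ± 0.36, limma adjusted p = 0.391). The adipokine vaspin, Serpina12, had 61.1 and 80.4 in resistant and 46.1 and 41.4 in control libraries; its groups did not overlap, and its interval ran from 0.00 to 1.34 on the log2 scale (0.67 ± 0.29, limma adjusted p = 0.187). Within clade A, 4 of 24 members were tested. With limma 0 rose and 2 fell, beside 5.32% and 4.73% of all tested genes. At an unadjusted limma p under 0.05, 1 was higher, and with voom 0 rose.

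**Figure D3:**
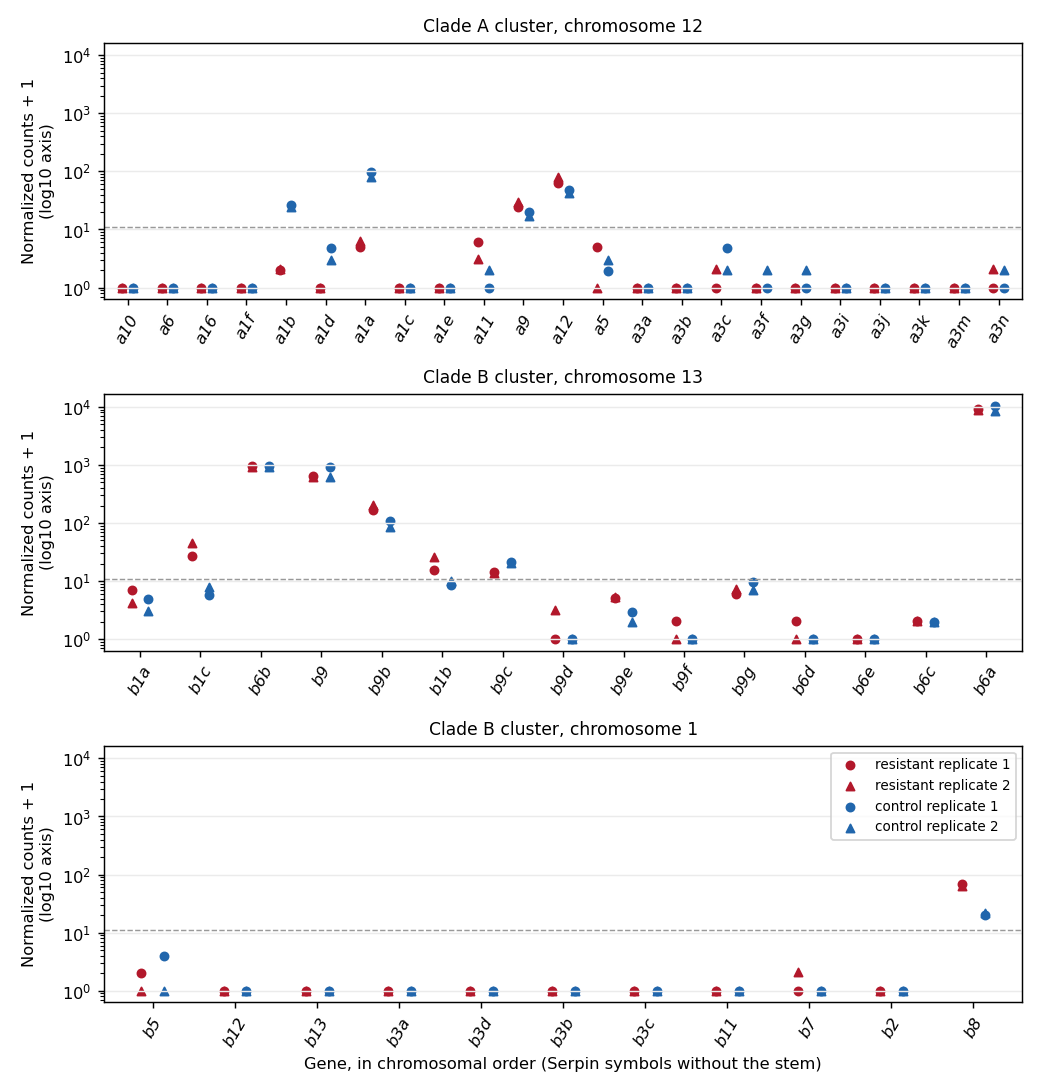
Normalized counts plus 1 (log10 axis) per library of the serpins in the clusters on chromosomes 12, 13 and 1, in chromosomal order, resistant left of control; the dashed line marks 10 normalized counts. Serpina1a and Serpina1b lie above the line only in the control libraries, and Serpinb1b and Serpinb1c only in the resistant libraries.

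Clade B held 26 members, of which 8 were tested. With limma 3 rose and 0 fell, beside 5.32% and 4.73% of all tested genes. At an unadjusted limma p under 0.05, 0 were lower, and with voom 2 rose and 0 fell. Serpinb8 (ENSMUSG00000026315.13; chromosome 1, 107590006 to 107610484, plus strand), whose human counterpart inhibits furin in vitro, had 67.3 and 63.3 normalized counts in resistant libraries, against 19.2 and 21.2 in control libraries. The libraries of each group were close to each other and the groups well apart. Serpinb8 thus had a log2 fold change of 1.65 ± 0.30 (limma adjusted p = 0.0170). Without resistant replicate 1 or 2 the value was 1.60 or 1.69, with limma adjusted p of 0.178 and 0.151.

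Serpinb1c (ENSMUSG00000079049.9; chromosome 13, 32881434 to 32898211, minus strand) is a mouse copy of the gene for leukocyte elastase inhibitor. It had 26.5 and 44.0 normalized counts in resistant libraries, against 4.80 and 7.06 in control libraries. Every resistant library was above every control library, but the resistant libraries differed from each other by more than the control libraries did. On the log2 scale the difference was 2.36 ± 0.45 (limma adjusted p = 0.0194), and 2.72 and 2.01 without resistant replicate 1 and 2 (limma adjusted p = 0.0556 and 0.192). Like Serpinb1b, it reached the filter only through its resistant libraries, and with a pseudocount of 10 its log2 fold change was 1.48. Its close copy Serpinb1b had 14.3 and 24.7 in resistant and 7.69 and 9.08 in control libraries and did not pass the test (1.08 ± 0.45, limma adjusted p = 0.179). The coding sequences of Serpinb1b and Serpinb1c were 86.2% identical. Summed over the 3 Serpinb1 genes the level was 46.9 and 71.9 in resistant libraries, against 16.3 and 18.2 in control libraries. The neutrophil marker list, whose cells are a known source of this inhibitor, had 1 of 7 genes tested, with S100a9, Mpo, Retnlg and Cxcr2 at 0. The tested marker, S100a8, had 394 and 393 normalized counts in resistant libraries, against 800 and 421 in control libraries, and did not pass the test (log2 fold change -0.56). The part of such cells in the Serpinb1c result was not tested.

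Serpinb9 is the mouse inhibitor of granzyme B, the killing protease of cytotoxic lymphocytes, and it lies beside further copies on chromosome 13. It had 643 and 624 normalized counts in resistant libraries, against 934 and 617 in control libraries. Control replicate 1 stood above the other libraries, and the groups overlapped. Its log2 fold change was -0.26 ± 0.20 (95% interval -0.74 to 0.22; limma adjusted p = 0.466). Leaving out control replicate 1 gave 0.038, and leaving out control replicate 2 gave -0.56. Each of these fits held 1 control library, so the value rested on which one was kept. Serpinb9b (ENSMUSG00000021403.3; chromosome 13, 33027416 to 33041884, plus strand), 9.46 kb away and 85.3% identical in coding sequence, rose: it had 168 and 204 in resistant libraries, against 108 and 83.7 in control libraries (0.96 ± 0.24, limma adjusted p = 0.0461). This call was near the threshold and was lost with voom (adjusted p = 0.0503), with a filter of 50 normalized counts (limma adjusted p = 0.0523) and without resistant replicate 1 or 2 (limma adjusted p = 0.214 and 0.398). The difference between the 2 genes' changes was not tested. Serpinb9c had 13.2 and 12.9 in resistant and 20.2 and 19.2 in control libraries and did not pass the test (-0.56 ± 0.38, 95% interval -1.44 to 0.33).

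Of 16 granzymes and neutrophil serine proteases 2 were tested, and Gzmb, Gzmc, Gzmd, Gzmf, Gzmg, Gzmn, Ctsg and Mcpt4 had no read in any library. Prtn3, which encodes neutrophil proteinase 3, fell, at 47.9 and 64.4 normalized counts in resistant and 154 and 106 in control libraries (-1.19 ± 0.29, limma adjusted p = 0.0451), a call lost without either resistant library (limma adjusted p = 0.341 and 0.141) and with voom.

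Serpinb6a and Serpinb6b, intracellular inhibitors of trypsin-like proteases, were the most abundant clade B members. Serpinb6a had 9047 and 8906 normalized counts in resistant and 10377 and 8481 in control libraries (log2 fold change -0.064 ± 0.12, 95% interval -0.35 to 0.23). Serpinb6b had 973 and 925 in resistant and 950 and 910 in control libraries (0.029 ± 0.13, interval -0.27 to 0.33). Neither passed the test, with limma adjusted p of 0.791 and 0.911, and each changed sign under some alternatives. The exons of Serpinb6a overlap those of Nqo2 and Ripk1 on the opposite strand by 762 and 241 bases, and no source used here tells if the counting was strand-specific.

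Serpine2, or protease nexin, a clade E member and a secreted inhibitor of thrombin and urokinase, had 36180 and 42173 normalized counts in resistant libraries, against 56145 and 33203 in control libraries. The control libraries were at both extremes, with the resistant ones between them. The log2 fold change was -0.14 ± 0.23 (95% interval -0.69 to 0.40; limma adjusted p = 0.743). The value rested on which control library was kept: 0.23 with control replicate 1 left out, and -0.52 with control replicate 2 left out. Each of these fits held 1 control library, so the spread came from the resistant libraries alone. Of the 10 serpins that did not pass the test with all libraries, control replicate 1 was above control replicate 2 for 9. Among those that passed, the order was the same for Serpinf1, Serpina1a, Serpina1b and Serpinb9b. It was the reverse for others, such as Serpinb1c (4.80 and 7.06) and Serpinb8 (19.2 and 21.2). The share over all tested genes was not worked out.

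Of 12 plasminogen activation genes 10 were tested, 2 rose and 0 fell (limma, with 1 lower at an unadjusted p under 0.05, and 0 falling with voom). Their median log2 fold change was 0.11. For this and the other gene lists, the shares to set beside such counts are those over all tested genes, 5.32% rising and 4.73% falling. Plau, which encodes urokinase, had 8885 and 9236 normalized counts in resistant libraries, against 4571 and 5659 in control libraries (0.83 ± 0.13, 1.78-fold, limma adjusted p = 0.00872). Plat, which encodes tissue plasminogen activator, had 2541 and 2959 in resistant libraries, against 1923 and 1576 in control libraries (0.65 ± 0.14, limma adjusted p = 0.0299). Plau was not called without resistant replicate 2 (limma adjusted p = 0.0566), and Plat without resistant replicate 1 or 2 (0.0830 and 0.256). Plaur, the urokinase receptor, had 9867 and 9847 in resistant and 10535 and 9462 in control libraries and did not pass the test (-0.019 ± 0.11, limma adjusted p = 0.932).

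Thrombin is another main target of clade C, D and E serpins. Of 20 thrombin and coagulation genes 10 were tested, 4 rose (F2r, F2rl1, F3 and Procr) and 1 fell (Pros1), with a median log2 fold change of 0.11. F2rl1, the protease-activated receptor that trypsin-like enzymes cleave, had 315 and 380 normalized counts in resistant libraries, against 77.8 and 109 in control libraries (1.90 ± 0.24, limma adjusted p = 0.00384). Pros1, the anticoagulant protein S, had 144 and 140 in resistant libraries, against 719 and 435 in control libraries (-1.97 ± 0.25, limma adjusted p = 0.00422). These 2 passed the test without either resistant library, whereas F2r, F3 and Procr did not. The liver-made thrombin inhibitors of clades C and D were at trace levels, with 10 reads of Serpinc1 (antithrombin) in resistant and 3 in control libraries, and 3 and 8 of Serpind1 (heparin cofactor).

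The C1 inhibitor gene, Serping1, had 2 reads in resistant and 2 in control libraries. Of 12 genes for classical complement and contact proteases 11 were tested, 1 rose (Bdkrb2, the bradykinin receptor) and 2 fell. C2 had 30.6 and 33.3 normalized counts in resistant libraries, against 375 and 319 in control libraries (-3.40 ± 0.23, limma adjusted p = 0.000415). C4b had 478 and 557 in resistant libraries, against 5515 and 3117 in control libraries (a fitted resistant-to-control ratio of 0.125, limma adjusted p = 0.000741). C2 and C4b, components cleaved by the protease that C1 inhibitor blocks, passed the test whichever library was left out, and Bdkrb2 was lost without either resistant library (limma adjusted p = 0.0512 and 0.100).

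Serpinh1 encodes Hsp47, a chaperone of procollagen in the endoplasmic reticulum, and was the most abundant serpin per kilobase. It had 22775 and 24277 normalized counts in resistant libraries, against 24256 and 20586 in control libraries. The groups overlapped, and the log2 fold change was 0.074 ± 0.12 (95% interval -0.21 to 0.36; limma adjusted p = 0.752). Its sign turned under quantile normalization. Of 22 other collagen chaperones and modifying enzymes 20 were tested, 4 rose (P4ha1, Plod2, Fkbp14 and Fkbp7) and 1 fell (P3h2), with a median log2 fold change of 0.25. P4ha1, a subunit of prolyl hydroxylase, had 31605 and 30273 in resistant libraries, against 21189 and 20937 in control libraries (0.55 ± 0.11, limma adjusted p = 0.0209). P3h2, a prolyl hydroxylase of basement membrane collagen, had 13.2 and 13.9 in resistant libraries, against 110 and 71.6 in control libraries (-2.62 ± 0.34, limma adjusted p = 0.00459). Without resistant replicate 1, and likewise without resistant replicate 2, 0 genes of this list passed upward and 1, P3h2, passed downward.

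Neuroserpin, Serpini1, an inhibitor of tissue plasminogen activator known from neurons, had 247 and 235 normalized counts in resistant libraries, against 283 and 214 in control libraries. The groups overlapped (-0.032 ± 0.20, 95% interval -0.51 to 0.45, limma adjusted p = 0.939). The intracellular targets of clade B serpins include cysteine cathepsins, of which 5 of 10 were tested, 0 rose (limma; 0 were higher at an unadjusted p under 0.05, and 0 with voom) and 1, Ctso, fell (-0.60 ± 0.15, limma adjusted p = 0.0482; 0 fell with voom, and without either resistant library the limma adjusted p was 0.319 and 0.162). Of 25 epithelial serine proteases 12 were tested, 1 rose (Htra2) and 1 fell (St14, which encodes matriptase: 62.2 and 72.9 normalized counts in resistant libraries, against 194 and 158 in control libraries). Both calls were lost without either resistant library, with limma adjusted p of 0.129 and 0.0768 for St14 and of 0.343 and 0.306 for Htra2.

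Among 27 protease inhibitors of other families 19 were tested, 2 rose (Tfpi and Spock2) and 2 fell (Cst6 and Timp3). Over all tested genes 5.32% rose and 4.73% fell. The median log2 fold change of the list was 0.06. Timp3, the matrix-bound metalloproteinase inhibitor, had 5419 and 6096 normalized counts in resistant libraries, against 11652 and 9695 in control libraries (-0.89 ± 0.13, limma adjusted p = 0.00700), and 0.0524 was its limma adjusted p without resistant replicate 1. Tfpi, the inhibitor of the tissue factor pathway, had 2717 and 2707 in resistant libraries, against 1683 and 1658 in control libraries (0.70 ± 0.11, limma adjusted p = 0.00883). The call of Tfpi was lost without resistant replicate 1 or 2 (limma adjusted p = 0.0975 and 0.101), and so were those of Spock2 and Cst6. Over the 9 lists of related genes together, 149 genes with 93 tested, 14 rose and 9 fell, beside the same shares of 5.32% and 4.73%. The median log2 fold change of these related genes was 0.07. With no filter on low values 5 of them passed, without resistant replicate 1 or 2 the number was 6 in each case, and without control replicate 1 or 2 it was 45 and 40.

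**Figure D4:**
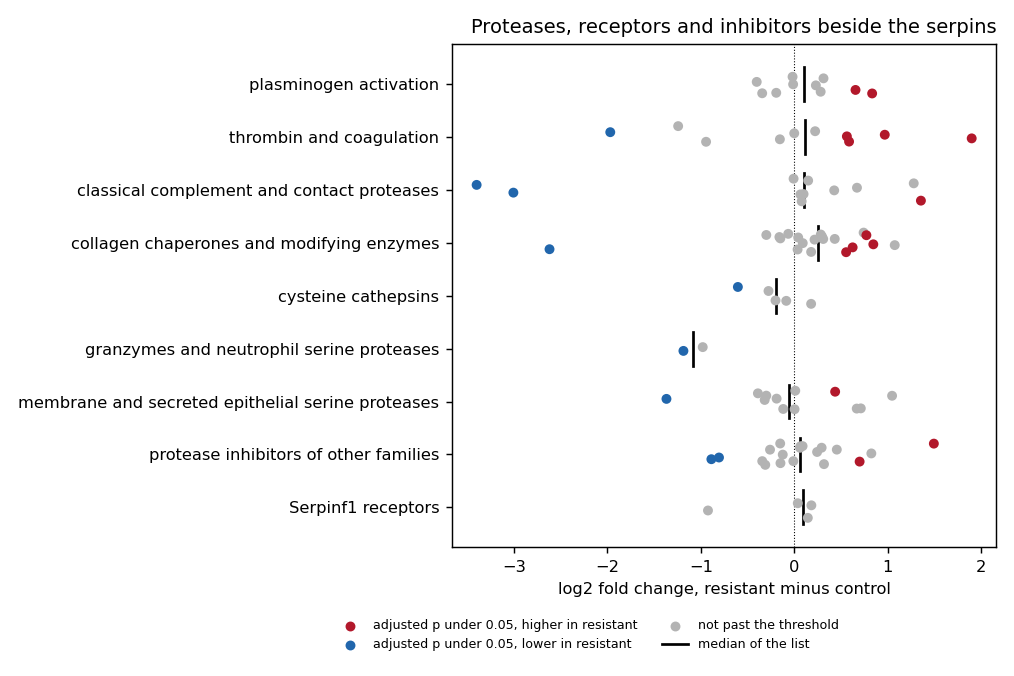
Log2 fold changes (resistant minus control) of the tested genes in the 9 related lists, a point per gene coloured by the outcome of the test, with the median of each list as a black bar. The list medians run from -1.08, for the granzyme list with 2 tested genes, to 0.25, for the collagen list with 20, and C2, C4b, P3h2 and Pros1 stand among the lowest values.

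Of the 61 members 52 have a promoter sequence in the RefSeq table, and 15 of the 17 tested, with 18 sequences between them, were compared for shared letters. The number of CG dinucleotides per 250 bases had a median of 3 in these 18 (range 0 to 34), beside 6 in all 32851 (range 0 to 56). CAGAC occurred in 8 of the 18, against 42.2% of all promoters, and ACGTG in 2 (Serpinf1 and Serpinh1). TATAAA occurred in 1, of Serpinb1c, against 12.4% of all promoters. The interferon response core, GAAA followed after any 2 bases by GAAA, occurred in 2 (Serpinb6a and Serpinb9), against 2.98%. Neither of the last 2 genes passed the test.

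Among the 20 members with reads below the filter, none reached 10 normalized counts in any library. The member just outside the filter was Serpinb9g, with a mean of 6.56, and those just inside were Serpina1b with 12.8 and Serpinb1b with 13.9. Serpinb5, which encodes maspin, a serpin of normal mammary epithelium, had 1 read in resistant and 3 in control libraries. Serpina3n, an acute-phase inhibitor often seen in reactive tissue, had 1 and 1. The 24 members without a read include the squamous cell antigen genes Serpinb3a to Serpinb3d, Serpinb2, and the hormone-binding globulins Serpina6 and Serpina7. A count of 0 allows up to 3 reads per library, so low expression of these genes was not detectable at this depth. A further 7 Serpin symbols are not protein-coding, and none exceeded 2.15 normalized counts in a library.

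**Figure D5:**
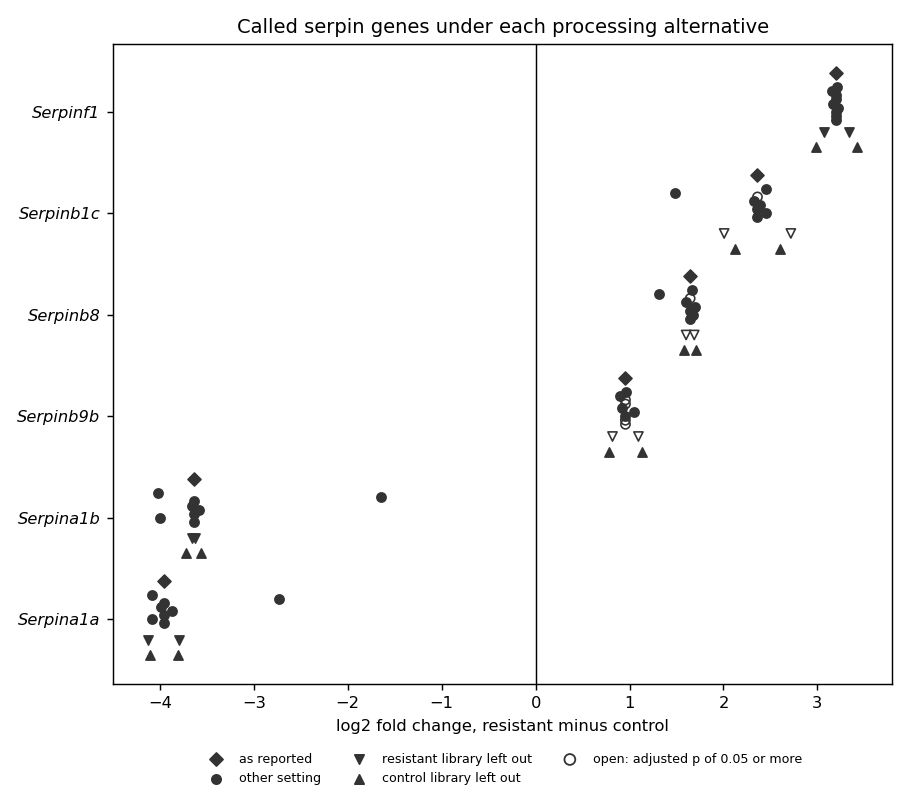
Log2 fold change (resistant minus control) of 6 of the 7 serpins past the threshold, as reported and under each processing alternative; open symbols have an adjusted p of 0.05 or more. Serpinf1, Serpina1a and Serpina1b have filled symbols throughout, and the other 3 drawn have open ones where a resistant library was left out.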

How the data were processed

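Per the submitters' processing notes, reads were handled with STAR and DESeq2 on mm10; versions and settings are not given in the sources used here. The table deposited by the authors holds log2 values. Worked out from the values, they equal log2 of 1 plus the count over its library size factor: 2 to the value, minus 1, was a whole multiple of 1 step per library for 100% of values (tolerance 0.01 reads), which gave the reads. Groups came from the source labels, and columns were matched by title. Of 55385 identifiers, 55144 joined to GENCODE M21 (GRCm38, that is mm10) without version and 54487 with it.

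The test covered genes averaging 10 or more normalized counts across the 4 libraries and was run on the deposited values with limma 3.58.1 in R 4.3.3 (lmFit, eBayes with a trend, no block), adjusted by the Benjamini-Hochberg method, threshold 0.05. Fold changes on this scale carry a pseudocount of 1 and understate the change of low genes. Exact 95% intervals and the floor of 3 reads describe counting error alone, as PCR copies of 1 molecule may count as separate reads. Only the fitting step was run on simulated reads with known changes, and no result here rests on that run. The simulation used the same setting for the spread of all genes and both groups. As alternatives, the pseudocount, the filter and the scaling were varied, and the fit was repeated with robust moderation, voom on the recovered reads, a replicate block and leaving out each library. Named genes were all tested serpins and the members of the related lists past the threshold, with the few others described. The members, lists and tests were chosen with earlier results of these data known. No protein sequences were used. 1 tested serpin is counted but not reported here individually.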

Additional observations from a re-analysis of the deposited data

How the results depend on the processing

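Serpinf1, Serpina1a and Serpina1b kept their direction and passed the test in every alternative that tested them. The number of serpins past the threshold was 7, and 3 with no filter on low values, 2 with a filter of 50 normalized counts (which leaves 10 serpins, removes Serpina1a, Serpina1b, Serpinb1c and Serpinb8 from the test, and ends the call of Serpinb9b), and 3 to 9 when 1 library was left out. Over all genes the count was 1432, and 311 with no filter and 414 to 4067 with 1 library left out: 436 and 414 without resistant replicate 1 and 2, and 3203 and 4067 without control replicate 1 and 2. Over the related lists it was 23, and 5 with no filter and 6 to 45 with 1 library left out. With no filter 26782 genes were tested; for the rest the cause was not tested. With the replicate block 1213 genes, 6 serpins and 24 related genes passed, Serpinb9b being lost; the labels give the numbers no meaning, and the deviations of same-numbered libraries had a correlation of -0.36 over 14238 genes. Signs turned for Serpinb6b scaled to total reads (-0.011) and for Serpinh1 under quantile normalization (-0.027). With 1 library left out the log2 fold change ran from -0.21 to 0.082 for Serpinb6a, -0.0079 to 0.066 for Serpinb6b, -0.56 to 0.038 for Serpinb9, -0.52 to 0.23 for Serpine2, -0.045 to 0.19 for Serpinh1 and -0.23 to 0.17 for Serpini1. Over 214 alternative values of members, 187 kept direction and call, 15 lost the call, 2 gained it and 10 turned sign. Groups of 2 libraries and low reads limit what could be called below about 10 normalized counts.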

Other observations

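Of the serpins below the filter, some had more reads in resistant libraries and others, among them Serpinb9g, Serpind1 and Serpinf2, had fewer. Serpinc1, the antithrombin gene, had 10 reads in resistant and 3 in control libraries, a depth-scaled ratio of 3.54 (95% exact interval from 0.912 upward, counting error only). Serpina11 had 7 and 1 (7.43, 0.955 to 335) and Serpinb9e had 8 and 3 (2.83, 0.680 to 16.6). Each interval includes a ratio of 1, so no difference was detectable at this depth. Serpina1d had 0 reads in resistant and 6 in control libraries, the same direction as Serpina1a and Serpina1b, with an upper bound of 0.902 on the ratio.

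Summed over the copies of a gene, the 7 Serpinb9 genes had 835 and 854 normalized counts in resistant and 1072 and 727 in control libraries, and the 5 Serpinb6 genes had 10023 and 9831 in resistant and 11328 and 9392 in control libraries. In both sums the resistant libraries lay between the control libraries.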
